A study of Mus musculus with 32 samples.

Results

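The regions described here were promoter peaks of open chromatin that were found in early 2-cell mouse embryos and had no counterpart in late 1-cell embryos. They were chosen from the deposited ATAC-seq peak lists. ATAC-seq marks open chromatin as the places where a transposase can cut. A peak of the early 2-cell DMSO list was a member when it overlapped no peak of the late 1-cell DMSO list by even 1 bp and lay within 1 kb of a transcript start of the GENCODE M21 annotation. Of 27693 early 2-cell DMSO peaks, 4342 were members. They are compared below with 3686 promoter peaks that were already open at late 1-cell, called open-since peaks, and with 15961 newly opened distal peaks, which lay over 2.5 kb from any transcript start.

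Embryos were made by in vitro fertilization from oocytes and sperm of B6D2F1/J mice, which were 6 to 8 weeks of age. Treated embryos were cultured with 10 µM A-485, which blocks the acetyltransferase activity of CBP and p300, from 4 to 20 hours post fertilization (hpi), or with 50 nM trichostatin A (TSA), which inhibits histone deacetylases, from 8 to 28 hpi. The controls received DMSO. A-485 was washed off at 20 hpi, so late 2-cell embryos of that group were collected after its removal. The paper reports that global H3K27ac returned to the level of controls after the wash. It also reports that all embryos treated this way arrested at the 2-cell stage. ATAC-seq lists covered late 1-cell embryos and embryos at early 2-cell, each with A-485 or DMSO, as 1 list per group over 2 replicates, so a peak carries no replicate error. Total RNA-seq covered A-485 and DMSO in zygotes and at the early and late 2-cell stages, and TSA with a DMSO control of its own at late 2-cell, as 16 libraries in 8 groups of 2. Whether the 2 libraries of a group came from separate batches of embryos is not stated, so the p-values measure the spread between these libraries, which may be partly technical. The series has 32 samples in all, and its H3K27ac samples were not analysed here.

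The paper describes a minor wave of zygotic transcription that starts in the late zygote and runs to early 2-cell. It places the major wave at late 2-cell. Over these stages RNA stored in the oocyte is broken down. Promoters rich in CpG dinucleotides, which serve many housekeeping genes, often open without a tissue-specific factor, whereas promoters that arose within repeats drive many genes of the 2-cell stage. CBP and p300 are coactivators that acetylate histone H3 at lysine 27 at active promoters and enhancers.

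Of the 4342 newly opened promoter peaks, 1481 overlapped a peak of the early 2-cell A-485 list and are called retained, and 2861 did not and are called absent. The share retained was 34.11% (95% Wilson interval 32.71 to 35.53%), against 93.65% (92.82 to 94.39%) of open-since promoter peaks and 3.114% (2.855 to 3.395%) of new distal peaks. These intervals cover counting error over peaks only. A peak missing from a list was not called there, which is not the same as closed chromatin, and the A-485 list is the shorter one, with 13712 peaks. When the 7094 strongest peaks were taken from each list, 1054 peaks met the rule and 33.78% of them were retained.

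Sequences of 5 newly opened promoters are shown first because absent and retained peaks differed in base composition. They belong to the strongest absent peaks whose protein-coding gene had less RNA with A-485 at early 2-cell, and to the strongest retained peaks whose gene did not pass that test. Each runs 5′ to 3′ on the gene's strand, lies inside the peak, and ends at the base before the annotated start. Bases are from the GRCm38 reference of RefSeq, in lower case, with capitals for matches to GGATTA (or TAATCC, its reverse complement), GGGCGGGG (or CCCCGCCC) and CCAAT. The absent peaks lay at Zfp352 (chr4:90218652-90218819, plus strand) and at Tdpoz1 (chr3:93676311-93676468, minus strand).

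Zfp352: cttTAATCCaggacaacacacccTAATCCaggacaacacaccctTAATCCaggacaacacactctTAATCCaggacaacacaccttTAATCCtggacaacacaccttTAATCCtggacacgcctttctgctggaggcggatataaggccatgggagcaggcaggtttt
Tdpoz1: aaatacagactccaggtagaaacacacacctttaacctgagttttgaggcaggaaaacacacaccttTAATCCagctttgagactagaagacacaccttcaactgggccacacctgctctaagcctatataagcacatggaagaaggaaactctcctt

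The retained peaks lay at Scai (chr2:39190735-39191031, minus strand), Psmc3 (chr2:91053934-91054008, plus strand) and Nbeal1 (chr1:60180358-60180598, plus strand).

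Scai: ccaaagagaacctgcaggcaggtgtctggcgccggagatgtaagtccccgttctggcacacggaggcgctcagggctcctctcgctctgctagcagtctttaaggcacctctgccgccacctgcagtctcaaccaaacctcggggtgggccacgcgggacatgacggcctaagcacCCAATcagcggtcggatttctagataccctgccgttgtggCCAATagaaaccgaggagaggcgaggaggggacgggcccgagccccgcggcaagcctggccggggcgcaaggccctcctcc
Psmc3: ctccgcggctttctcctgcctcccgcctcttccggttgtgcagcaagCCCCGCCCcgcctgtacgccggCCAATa
Nbeal1: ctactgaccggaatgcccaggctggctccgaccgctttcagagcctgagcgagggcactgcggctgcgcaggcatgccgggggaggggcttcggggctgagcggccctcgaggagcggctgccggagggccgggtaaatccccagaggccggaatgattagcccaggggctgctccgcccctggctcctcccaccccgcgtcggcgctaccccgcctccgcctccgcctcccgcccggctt

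The Zfp352 stretch holds TAATCC 6 times and that of Tdpoz1 holds it once. CpG dinucleotides number 2 and 0 in the 2 absent stretches, and 22, 8 and 24 in those of Scai, Psmc3 and Nbeal1. The peak at Zfp352 had a fold enrichment of 16.86 and that at Tdpoz1 14.36. Fold enrichment is the authors' peak height over the local background. The retained peak at Scai stood at 14.77 with DMSO and 11.24 with A-485, that at Psmc3 at 13.84 and 6.65, and that at Nbeal1 at 13.58 and 10.29.

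The same contrast held over the full set of newly opened promoter peaks. In a 300 bp window at the summit, retained peaks had a median GC content of 64.33% and a CpG observed over expected ratio of 0.8387, close to the open-since values of 63.67% and 0.8211. Absent peaks had medians of 49.33% and 0.2675, nearer to those of new distal peaks, 48% and 0.2147. Bases that the reference masks as repeats made up a median of 0% of a retained window, 48.67% of an absent window and 56% of a distal window. Over 50% of the window was masked in 47.78% of absent peaks. Split into terciles by CpG ratio, newly opened promoter peaks were retained in 3.317%, 22.11% and 76.86% of cases from the lowest to the highest. Of the 1412 members with over 50% of the window masked, 3.187% were retained, against 49.01% of the others.

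**Figure D1:**
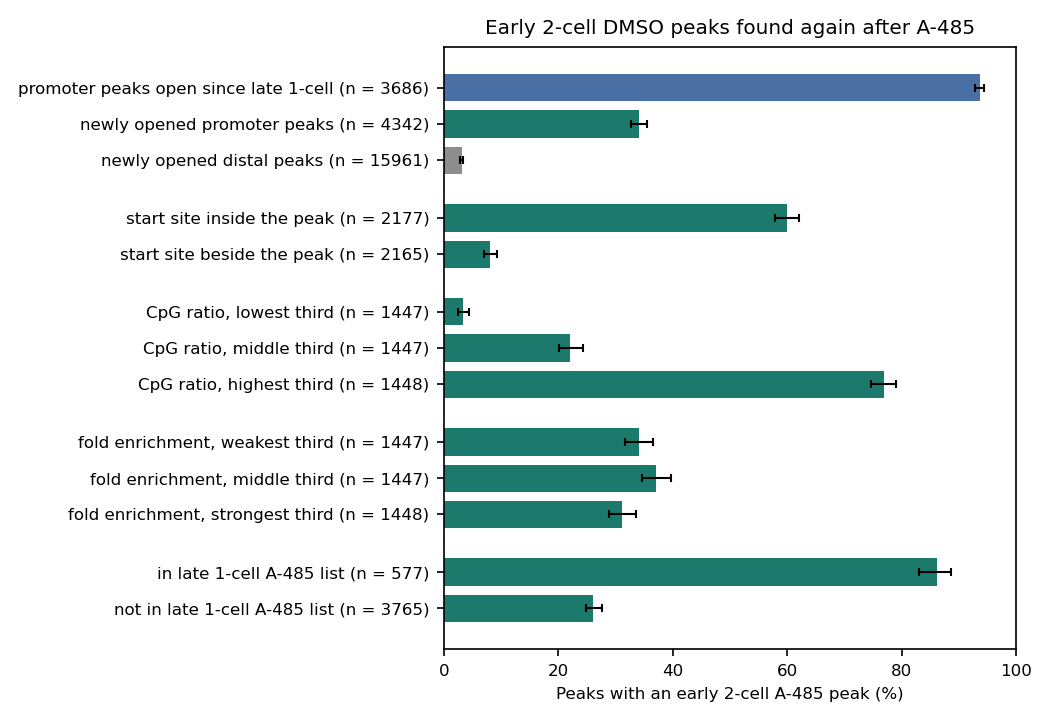
Share of early 2-cell DMSO peaks that overlapped a peak of the early 2-cell A-485 list (x axis, percent), for open-since, newly opened and new distal peaks and for newly opened promoter peaks split by position of the start site, CpG ratio, fold enrichment and presence in the late 1-cell A-485 list. Bars are shares and error bars 95% Wilson intervals; the share rose from 3.317% in the lowest CpG tercile to 76.86% in the highest, and stayed between 31.15% and 37.11% across terciles of fold enrichment.

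Where the peak sat relative to the start site went with its retention as well. The start lay inside the peak for 2177 members, 50.14% of them, against 94.85% of open-since peaks. Members that contained the start were retained in 59.99% of cases (57.92 to 62.03%) and members beside it in 8.083% (7.008 to 9.307%). Among members containing the start, 5.245% of those in the lowest CpG tercile and 78.55% of those in the highest were retained. Members beside the start in the lowest tercile were retained in 2.842% of cases, with an interval of 2.031 to 3.965% that overlaps the 3.204 to 8.472% of those containing it, and among the 110 members beside the start with the highest CpG ratios 56.36% were retained. The 1463 members with a summit within 100 bp of the start were retained in 67.33% of cases. Summits over 500 bp upstream numbered 922, of which 7.484% were retained, and summits over 500 bp downstream 775, of which 8.258% were retained. Absent peaks had their summit in an intron in 55.16% of cases and retained peaks in 17.49%.

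Height did not separate retained from absent peaks. Their median fold enrichment at early 2-cell with DMSO was 7.259 and 7.322, while the median width was 692 bp for retained and 467 bp for absent peaks. Over all members the fold enrichment ranged from 1.604 to 25.9, with a median of 7.296. At the retained peaks the ratio of fold enrichment with A-485 to that with DMSO had a median of 1.017 (quartiles 0.8382 and 1.249), and 782 of 1481 were higher with A-485. Of the members, 577 also overlapped a peak of the late 1-cell A-485 list, although by the rule none overlapped the DMSO list of that stage. That is 13.29%, or 25.52% among the strongest 7094 peaks of each list, and 86.14% of the 577 were retained at early 2-cell against 26.14% of the other 3765. The edge of the rule was smooth. The 229 members in the outermost 100 bp of the 1 kb window had a median fold enrichment of 7.229 and were retained in 3.493% of cases, against 7.361 and 2.577% for the 194 newly opened peaks in the next 100 bp. Of promoter peaks separated from a late 1-cell DMSO peak by under 100 bp, 19 were members, and 68.42% of these were retained.

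Letter motifs were then counted on both strands of the 300 bp windows. GGATTA, the core recognised by OTX and OBOX homeodomain factors, occurred in 66.38% of absent and 9.858% of retained peaks, against 6.294% of open-since peaks, 77.58% of new distal peaks and 8.318% of windows at all annotated transcript starts. Of the matches in absent peaks, 89.16% lay in masked bases. A single 12-letter context, ctgGGATTAaag, made up 63.42% of the matches in absent peaks and occurred in 47.68% of these peaks, in 4.254% of retained and in 55.98% of distal peaks. As background, these letters are part of the consensus of the mouse B1 repeat, but no repeat annotation was used here. The 9-letter site TCAAGGTCA of the nuclear receptor NR5A2 occurred in 2.761% of absent and 0.2701% of retained peaks, against 0.5346% of all starts.

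Motifs of housekeeping promoters were more frequent in retained peaks. The GC box GGGCGGGG of SP and KLF factors was found in 32.82% of retained and 6.501% of absent peaks, with 40.75% in open-since peaks and 14.25% at all starts. The ETS site CCGGAAGT was found in 9.048% of retained and 1.468% of absent peaks, against 3.453% of all starts. The NF-Y box CCAAT, which is short and frequent, was found in 35.45% of retained and 26.84% of absent peaks, in 55.64% of open-since peaks and in 35.78% of all starts. A match is a stretch of letters and not a measured binding site, and these shares move with base composition, which also differed between the groups.

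**Figure D2:**
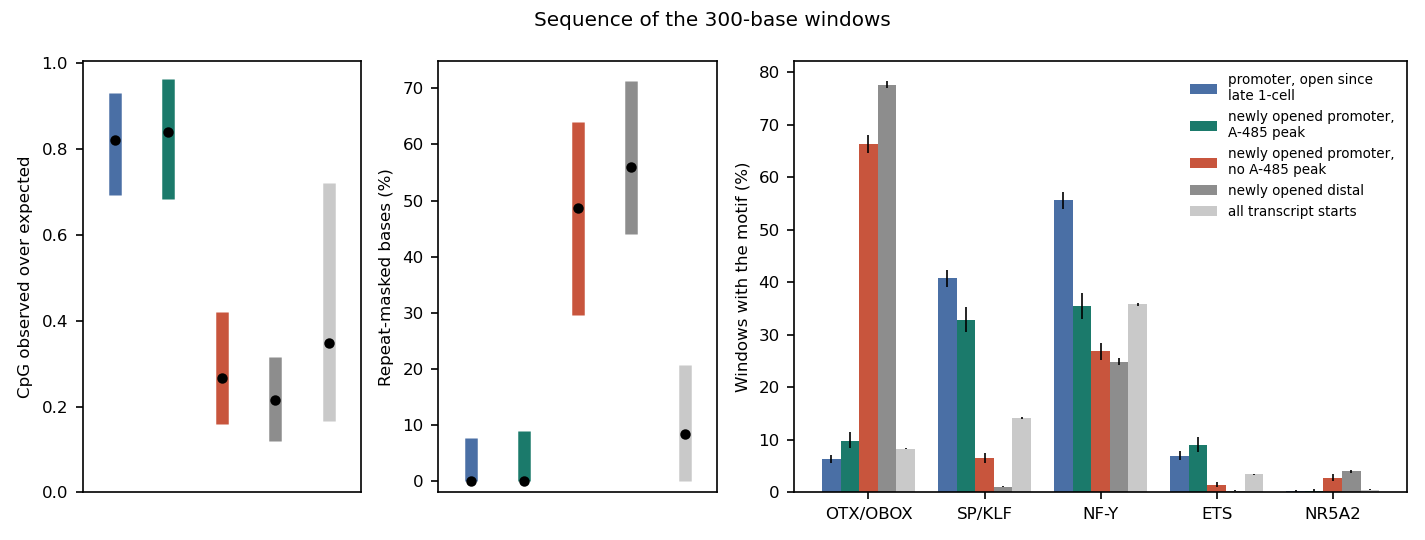
Sequence features of 300 bp windows at open-since, retained, absent and new distal peaks and at all annotated transcript starts. Points with bars are medians with quartiles of the CpG observed over expected ratio and of the percent of masked bases, and the motif panel gives the percent of windows with each motif; for GGATTA absent peaks lie near the distal peaks (66.38% and 77.58%) and retained peaks near the open-since peaks (9.858% and 6.294%), while for CCAAT retained peaks (35.45%) lie nearer the absent (26.84%) than the open-since peaks (55.64%).

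The strongest newly opened peaks mostly lay beside the starts of genes with little RNA. Of the 10 members with the largest fold enrichment, only the peak at Gm13231 (22.55) was retained. The top peak, at A530040E14Rik, reached 25.9 and lay in fully masked sequence. It contained the annotated start, whereas the others of the 10 lay 360 to 873 bp from the nearest start. The level of A530040E14Rik was 14.12 and 18.64 FPKM and that of Gm13231 15.48 FPKM in both early 2-cell DMSO libraries. At 7 of the others, Gm18122, Gm18029, Gm18124, Gm45316, Vmn2r-ps19, Gm40765 and Gm11196, the nearest gene had at most 4.73 FPKM in any library. FPKM is the read count per kilobase of transcript, relative to the library size. Kdm3b, which encodes a histone H3 lysine 9 demethylase, had a peak of 18.71 and a level of 7.54 and 5.68 FPKM in the early 2-cell DMSO libraries. By the type of the nearest gene, 3430 members lay at protein-coding genes and were retained in 38.98% of cases, against 22.01% of 427 at noncoding RNA genes and 9.394% of 330 at pseudogenes.

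The nearest genes of the members numbered 3806 in the expression table, of which 2935 are protein-coding. They comprised 1434 genes with a retained peak and 2372 whose newly opened peaks were all absent, and 405 also had an open-since peak. Of the 1434 genes 1388 had no open-since peak, and of the 2372 genes 2013 had none. The 405 were thus mostly genes of absent peaks, and the comparisons by fate of the peak below include them. Their RNA was measured in other samples than the peaks, and the rule on peaks does not use it. A gene was called higher or lower when edgeR's quasi-likelihood test gave a Benjamini-Hochberg adjusted p under 0.05 over all genes tested, the fold change was at least 2 and the mean was at least 1 FPKM in either group. Changes are relative to the other RNA of a library, and in embryos fewer cells and less RNA per cell cannot be told apart. The libraries held 13206163 to 32585987 expected counts. Mitochondrially encoded genes took 0.795 to 1.06% of these in zygotes and 2.24 to 2.5% at early 2-cell, and at late 2-cell 5.35 to 5.43% with A-485 and 2.35 to 2.44% with DMSO. They took 3.66 to 3.72% with TSA and 2.39 to 2.71% in its controls. Marker lists of other cells were low: 15 cumulus cell genes summed to at most 14.4 FPKM, and 8 fibroblast genes to 0.6 to 3.02 FPKM, except for 19.8 to 26 FPKM at late 2-cell with A-485 and 17.3 to 20.1 FPKM with TSA. In those fibroblast sums Pdgfra had a mean of 14.9 FPKM with A-485, and Postn had 8.48 FPKM with TSA. The summed level of 8 erythroid genes reached 47.3 FPKM with TSA, of which Hba-a2 alone made up 37.6 FPKM. The part of these genes in the results was not tested. Among 10 sperm genes Odf2 made up nearly the whole sum.

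Newly opened promoters had lower RNA at absent than at retained peaks throughout. The median level in the early 2-cell DMSO libraries was 7.08 and 7.46 FPKM for genes of retained peaks and 1.75 FPKM in both libraries for genes of absent peaks. These medians cover all gene types. At retained peaks 1293 of 1434 genes are protein-coding, and at absent peaks 1642 of 2372. From zygote to early 2-cell with DMSO, 3045 member genes could be tested, of which 432 rose (14.19%) and 586 fell (19.24%). Over all genes tested 11.2% rose and 14.9% fell, so both directions lay above the background. More of these genes fell than rose at the stage when their promoter peak appeared. Scaled to the mitochondrially encoded genes instead, 247 rose and 1616 fell.

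Genes off in the zygote can be counted without a test. Of 1493 member genes under 1 FPKM in both zygote DMSO libraries, 219 (14.67%) reached 1 FPKM in both early 2-cell DMSO libraries, against 54 (3.617%) with A-485. Over all genes off in the zygote these shares were 2.806% and 1.009%, and for genes of open-since peaks only 22.82% and 9.495%. For genes of retained peaks these shares were 27.52% of 367 with DMSO and 8.447% with A-485, and for genes of absent peaks 10.48% of 1126 and 2.043%. At late 2-cell with DMSO the count was 374 and with A-485 325. Among genes of retained peaks 42.23% were on at late 2-cell with A-485 and 38.96% with DMSO, whereas among genes of absent peaks it was 15.1% and 20.52%. Genes of open-since peaks, at 43.34% with A-485 and 32.77% with DMSO, and all genes, at 6.357% and 4.191%, had the direction of the retained peaks.

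The main rise of these genes came between early and late 2-cell. Of 3126 tested, 968 rose (30.97%) and 193 fell (6.174%), against 15.9% and 8.92% of all genes, and the median change was 0.497 on the log2 scale against -0.0249 over all genes. Genes with the start inside the peak rose in 33.44% of cases and those beside it in 27.09%. From zygote to late 2-cell, with the DMSO libraries of the TSA experiment, 1050 of 3151 rose (33.32%) and 576 fell (18.28%), against 22.1% and 20.2% of all genes. Genes of open-since peaks only rose about as often. As a share of each whole set, tested or not, 27.59% of member genes and 28.25% of those genes rose. The shares that fell were 15.13% and 20.52%. With mitochondrial scaling the counts of member genes were 610 and 1357. That scaling shifted the median of all expressed genes by -1.33 to early and by -1.38 to late 2-cell.

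With A-485 the rise to early 2-cell was smaller in number. From zygote to early 2-cell among A-485 libraries, 207 of 2947 member genes rose (7.024%) and 680 fell (23.07%), against 6.85% and 15.6% of all genes. With mitochondrial scaling the counts were 38 and 1937. Compared at the same stage, A-485 and DMSO zygotes did not differ for any of the 2844 member genes tested by these criteria. Over all genes 0.00548% were higher and 0.0657% lower there. At an unadjusted p under 0.05 there were 130 member genes with edgeR and 89 with DESeq2, and DESeq2 called 0 as well, with 2 genes past its adjusted p but under the fold limit.

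At early 2-cell, 406 of 3077 member genes were lower with A-485 than with DMSO (13.19%) and 5 were higher, against 7.9% and 0.402% of all genes tested. By fate of the peak, it was 178 of 1339 genes (13.29%) at retained peaks, 228 of 1738 (13.12%) at absent peaks and 11.28% at open-since peaks. Genes at 1 to 10 FPKM in the DMSO libraries were lower in 20.15% of cases at retained and in 21.77% at absent peaks, against 14.17% of all genes at that level. At 10 FPKM or more the shares were 11.85%, 13.25% and 12.5%. There, 18.82% of 271 genes with the start inside an absent peak were lower, against 9.415% of 393 genes beside one, while at 1 to 10 FPKM these shares were 22.49% and 21.32%. The 5 genes that were higher with A-485, given here after their values were seen, were Ahnak, Ccdc96, Tars2, Zc3h11a and Tsix. The mean of Zc3h11a in FPKM was lower with A-485 although its counts were higher, and Tsix overlaps a gene on the other strand, so both are uncertain.

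At late 2-cell, after A-485 had been washed off, the difference was broader. With A-485, 1173 of 3206 member genes were lower (36.59%) and 158 higher, against 16.8% and 10.5% of all genes. With mitochondrial scaling these were 1884 and 72. The shares lower were 38.45% for genes of retained peaks and 35.22% for genes of absent peaks. Among genes of at least 10 FPKM with DMSO, 52.82% and 55.82% were lower, against 45.1% of all genes at that level. TSA gave 1041 lower (32.08%) and 272 higher of 3245, against 13.9% and 13.8% of all genes, and 795 lower and 377 higher when libraries were scaled to total counts. The effect of A-485 itself differed between the stages for 840 of 3279 genes, 643 lower and 197 higher at late than at early 2-cell, against 7.38% and 7.6% of all genes tested. With mitochondrial scaling these were 1560 and 83.

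Genes that rise during normal development carried most of these differences. Of the 1050 member genes that rose from zygote to late 2-cell, 1013 were tested at early 2-cell and 355 were lower with A-485 (35.04%), with a median log2 change of -1.09. The share was 35.08% at retained and 35.02% at absent peaks, 32.81% for rising genes of open-since peaks only, and 32.05% of all rising genes. At late 2-cell 726 of 1039 were lower (69.87%, median -2.16), against 55.46% of all rising genes. Rising genes of open-since peaks only were close to the members there, at 67.49%. Of the 576 member genes that fell from zygote to late 2-cell, 4 were lower with A-485 at early 2-cell (0.6944%), near the 0.5453% of all falling genes. At late 2-cell 79 of 571 tested were lower (13.84%) and 42 higher. The share lower was 8.615% for falling genes of open-since peaks only and 5.489% of all falling genes. Higher there were 67 of 650 of the former and 550 of 4172 of all falling genes.

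**Figure D3:**
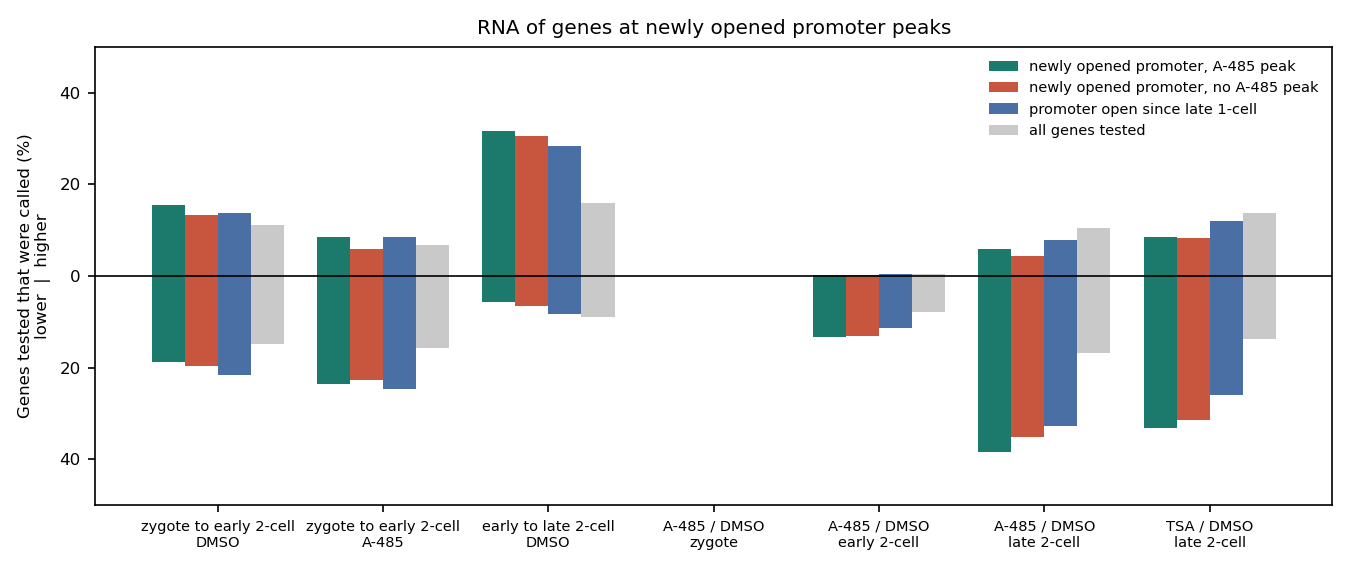
Percent of tested genes that were higher (upward bars) or lower (downward bars) in 7 RNA comparisons, for genes of retained and of absent newly opened promoter peaks, of open-since peaks only, and for all genes. At early 2-cell with A-485 the bars of retained (13.29%) and absent (13.12%) peaks reach nearly the same share lower, above the 7.9% of all genes.

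Of 41 genes listed as specific to the 2-cell stage, 9 were member genes. From zygote to early 2-cell 7 rose and 0 fell, with a median log2 change of 4.49, and with mitochondrial scaling 7 rose and 1 fell. With A-485 at early 2-cell, 7 were lower and 0 higher, with a median of -4.22. Peaks at Eif1a, Pramef8 and Zfp809 were retained and those at AF067061, Nelfa, Pramef6, Tcstv3, Tdpoz1 and Zfp352 were absent. Several belong to families of near-identical copies between which reads may be split, so the values of Tdpoz1, Tcstv3, AF067061, Pramef6, Pramef8 and Zfp352 are uncertain.

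Zfp352 encodes a zinc finger protein and is a well-known 2-cell gene. It measured 0.83 and 1.07 FPKM in the zygote DMSO libraries, 121.56 and 112.43 FPKM at early 2-cell with DMSO, and 1.28 and 1.52 FPKM with A-485. At late 2-cell it stood at 60.15 and 59.99 FPKM with DMSO, 19.34 and 13.53 FPKM with A-485, and 127.24 and 119.49 FPKM with TSA, whose own controls had 36.4 and 47.4 FPKM. At each stage treated and control libraries did not overlap, with A-485 libraries lower at both stages and TSA libraries higher. The gene rose by 7.01 ± 0.14 on the log2 scale (SE, n = 2 against 2, edgeR adjusted p = 3.13e-12) to early 2-cell and changed by -6.46 ± 0.13 with A-485 (adjusted p = 6.06e-11).

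Eif1a, whose product acts in the start of translation, had a retained peak. Its level rose from 0.42 and 0.27 FPKM in zygotes to 8.03 and 8.34 FPKM at early 2-cell with DMSO, and was 2.57 and 3.85 FPKM with A-485. The change with A-485 was -1.31 ± 0.24 (log2, edgeR adjusted p = 0.00279). Retention of the peak thus went with a lower level, and no groups overlapped. Tdpoz1, a gene of a speckle-type POZ family, had 20.15 and 29.9 FPKM with DMSO and 0 and 0.03 FPKM with A-485 at early 2-cell. At late 2-cell it had 26.83 and 38.3 FPKM with DMSO and 4.57 and 2.59 FPKM with A-485. Nelfa, a subunit of the negative elongation factor, was at 29.29 and 35.95 FPKM with DMSO and 29.34 and 29.95 FPKM with A-485 at early 2-cell, a difference of -0.12 ± 0.11 (adjusted p = 0.592).

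Genes with the largest rises to early 2-cell outside that list also had newly opened promoters. Calcoco2 encodes a receptor of selective autophagy, and its absent peak lies at chr11:96111851-96112077. It was at 0 and 0.13 FPKM in zygotes, 50.63 and 37.98 FPKM at early 2-cell with DMSO and 0.12 and 0.18 FPKM with A-485. The difference with A-485 was -8.24 ± 0.32 (log2, edgeR adjusted p = 4.39e-09). At late 2-cell it was at 148.71 and 166.82 FPKM with DMSO and 13.29 and 6.49 FPKM with A-485, so it came on later in A-485-treated embryos and stayed below the controls. Crxos, a homeobox gene with a retained peak, had 69.36 and 81.28 FPKM with DMSO and 0.27 and 0.13 FPKM with A-485 at early 2-cell. Ubtfl1, an HMG-box gene, had 48.49 and 43.49 FPKM against 0.08 and 0.37 FPKM, and changed by -7.26 ± 0.24 (adjusted p = 1.31e-09). The zygote levels of Calcoco2, Crxos and Ubtfl1 corresponded to at most 3 counts per library, so no fold change from zygote is given.

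Of 72 transcription factors listed for genome activation and early lineages, 24 were member genes, 13 with a retained and 11 with an absent peak. To early 2-cell 9 rose and 1 fell, but 6 rose and 9 fell with mitochondrial scaling, and between early and late 2-cell 11 rose and 2 fell. With A-485 at early 2-cell 9 were lower and 0 higher, 6 of them at retained peaks (Elf3, Hes1, Klf4, Klf9, Sox15 and Tbx3) and 3 at absent peaks (Dppa4, Rarg and Sox2). At late 2-cell 13 were lower and 2 higher with A-485, and 10 lower and 4 higher with TSA. Over all genes tested there, 16.8% were lower and 10.5% higher with A-485, and 13.9% and 13.8% with TSA. The same shares are the background for the late 2-cell counts of the groups below.

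Dppa4, a chromatin protein of pluripotent cells, had an absent peak at chr16:48283246-48283563. It was at 14.38 and 17.38 FPKM in zygotes, 36.13 and 31.43 FPKM at early 2-cell with DMSO, and 0.84 and 1.75 FPKM with A-485. Its A-485 libraries at early 2-cell lay below those of the zygote, and the difference from DMSO was -4.12 ± 0.3 (log2, edgeR adjusted p = 1.01e-06). At late 2-cell it was at 199.69 and 177.85 FPKM with DMSO, 12.12 and 21.64 FPKM with A-485, and 27.26 and 36.15 FPKM with TSA.

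Sox2, a factor of the pluripotent epiblast, had an absent peak 238 bp from its start. Its RNA was at 8.2 and 7.6 FPKM with DMSO and 2.33 and 1.82 FPKM with A-485 at early 2-cell, but at 1.96 and 2.83 FPKM with DMSO and 11 and 12.2 FPKM with A-485 at late 2-cell. The sign thus turned between the stages, from -1.91 ± 0.25 (log2, edgeR adjusted p = 0.000226) to 2.08 ± 0.31 (adjusted p = 0.000235). TSA libraries were likewise above their controls, at 18.49 and 16.48 FPKM against 4.15 and 1.91 FPKM.

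Among factors with retained peaks, Klf4, a factor of pluripotency, had 28.85 and 29.46 FPKM with DMSO and 10.26 and 11.4 FPKM with A-485 at early 2-cell. Klf9, of the same family, had 20.69 and 21.81 FPKM at late 2-cell with DMSO and 1.63 and 1.69 FPKM with A-485, a difference of -3.9 ± 0.19 (adjusted p = 2.56e-08). Hes1, a repressor downstream of Notch, had 20.93 and 26.38 FPKM with DMSO and 4.37 and 1.94 FPKM with A-485 at early 2-cell, but 17.28 and 18.34 FPKM against 28.9 and 29.27 FPKM at late 2-cell. Tbx3, a T-box factor, had 19.01 and 14.04 FPKM with DMSO and 7.6 and 7.44 FPKM with A-485, a change of -1.31 ± 0.15 (adjusted p = 7.25e-05). These genes were named because they were lower with A-485 at early 2-cell, so the direction they share was fixed by the choice. Other factors did not pass the test there. Yap1, a coactivator of TEAD factors with a retained peak, was at 405.96 and 405.87 FPKM with DMSO and 438.35 and 459.64 FPKM with A-485. Ctcf, the insulator protein, had an absent peak and was at 73.62 and 73.58 FPKM with DMSO and 77.57 and 76.94 FPKM with A-485. Nr5a2, a nuclear receptor, was at 73.61 and 78.6 FPKM at late 2-cell with DMSO and 18.6 and 10.84 FPKM with A-485, and its peak was absent too.

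**Figure D4:**
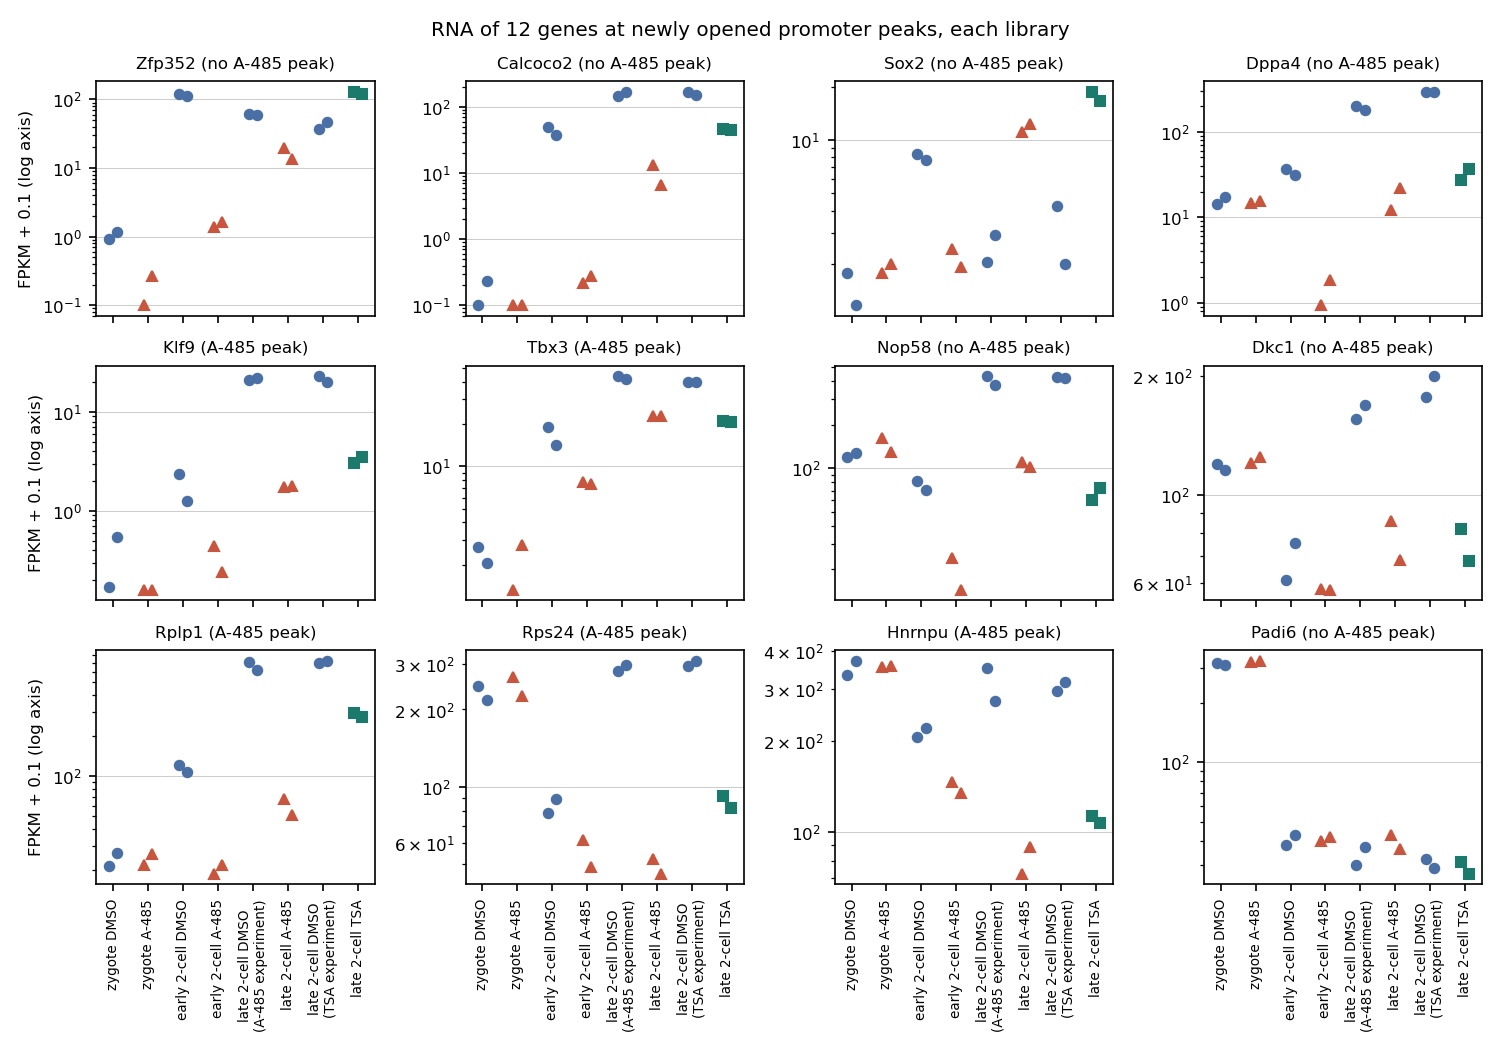
RNA level of 12 genes with newly opened promoter peaks in each of the 16 libraries (y axis, FPKM + 0.1, log scale), grouped by stage and treatment. Points are libraries; Zfp352, Calcoco2 and Dppa4 fall below 2 FPKM in both early 2-cell A-485 libraries, while Padi6 is about the same in A-485 and DMSO at that stage.

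Genes for ribosome assembly nearly all rose between early and late 2-cell. Of 118 such genes, 41 were member genes, 15 with a retained and 26 with an absent peak. To early 2-cell 2 rose and 21 fell, and from early to late 2-cell 39 rose and 0 fell, with a median log2 change of 2.28. From zygote to late 2-cell 25 rose and 1 fell, but with mitochondrial scaling 9 rose and 12 fell, so that direction depends on the scaling. With A-485 16 were lower and 0 higher at early 2-cell, 4 of them at retained and 12 at absent peaks, and 40 were lower and 0 higher at late 2-cell. TSA gave 39 lower and 0 higher. Their median level was 25 and 26.3 FPKM in zygotes with DMSO, 11.4 and 9.97 FPKM at early 2-cell with DMSO and 4.13 and 4.29 FPKM with A-485. At late 2-cell it was 44.8 and 43 FPKM with DMSO and 6.02 and 5.89 FPKM with A-485.

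Nop58, a core protein of box C/D small nucleolar ribonucleoproteins, had an absent peak at chr1:59685465-59686316. It was at 118.79 and 126.99 FPKM in zygotes, 81.09 and 70.58 FPKM at early 2-cell with DMSO and 23.94 and 14.32 FPKM with A-485. At late 2-cell it was at 431.9 and 376.01 FPKM with DMSO, 109.59 and 101.86 FPKM with A-485 and 59.72 and 72.41 FPKM with TSA. Both inhibitors left it below its controls, with a change of -2.06 ± 0.15 for A-485 (log2, edgeR adjusted p = 4.43e-07) and of -3.04 ± 0.1 for TSA (adjusted p = 6.72e-09). Dkc1, the pseudouridine synthase of the H/ACA particles, was at 60.8 and 75.65 FPKM with DMSO and 57.71 and 57.68 FPKM with A-485 at early 2-cell, a change of -0.53 ± 0.11 that missed the 2-fold limit. Gnl2, a nucleolar GTPase, fell from 91.29 and 97.42 FPKM in zygotes to 6.29 and 7.51 FPKM at early 2-cell with DMSO, and was at 44.26 and 36.82 FPKM at late 2-cell.

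Ribosomal protein genes had more retained than absent peaks. Of 85 listed, 25 were member genes, 17 with a retained and 8 with an absent peak. To early 2-cell 6 rose and 8 fell, but with mitochondrial scaling 1 rose and 14 fell. From early to late 2-cell 21 rose and 0 fell. With A-485 16 were lower and 0 higher at early 2-cell, 12 at retained and 4 at absent peaks, and at late 2-cell 23 were lower and 0 higher with A-485 and the same numbers with TSA. Rplp1, an acidic protein of the ribosomal stalk, was at 21.24 and 26.57 FPKM in zygotes, 120.48 and 107.95 FPKM at early 2-cell with DMSO and 18.55 and 21.59 FPKM with A-485. Its A-485 libraries at early 2-cell stood near the zygote levels, at -2.49 ± 0.19 against DMSO (adjusted p = 1.63e-06). Rpl23a was at 108.12 and 109.75 FPKM with DMSO and 19.21 and 21.86 FPKM with A-485, and Rps24 at 78.82 and 89.57 FPKM against 61.45 and 48.29 FPKM, which missed the 2-fold limit. Processed copies of these genes could take part of their reads.

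In further housekeeping groups the changes to early 2-cell were mixed, and more genes rose than fell afterwards. To early 2-cell 1 of 20 translation factors among the members rose and 5 fell, and of 23 spliceosome genes 3 rose and 4 fell. Of 39 transcription machinery genes 3 rose and 10 fell, and of 18 cell cycle genes 1 rose and 7 fell, against 11.2% and 14.9% of all genes. Median log2 changes were -0.414 for translation factors and -0.408 for transcription machinery. For spliceosome and cell cycle genes they were 0.0565 and 0.0696, and the spliceosome counts lay near the shares of all genes. Of the translation factors 12 rose and 0 fell between early and late 2-cell, 3 were lower with A-485 at early 2-cell and 14 at late 2-cell, and 17 were lower with TSA. Eif3c, a subunit of initiation factor eIF3 with a retained peak, was at 214.35 and 171.72 FPKM at late 2-cell with DMSO and 23.92 and 19.04 FPKM with A-485, and at 8.98 and 10.29 FPKM with TSA. Of 23 spliceosome genes 10 rose and 1 fell, with 3 lower at early and 16 at late 2-cell with A-485, and 18 with TSA. Hnrnpu, an RNA-binding protein, was at 206.31 and 220.97 FPKM with DMSO and 146.31 and 134.35 FPKM with A-485 at early 2-cell, a change of -0.49 ± 0.07 (adjusted p = 0.000271) within the 2-fold limit. At late 2-cell its change was -2.18 ± 0.14 (adjusted p = 1.57e-07).

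Of 39 genes of the transcription machinery 23 rose and 1 fell from early to late 2-cell, 3 were lower with A-485 at early and 29 at late 2-cell, and 29 were lower with TSA. The 3 at early 2-cell lay near the 7.9% of all genes tested that were lower there. Taf1a, a subunit of the RNA polymerase I factor SL1, was at 210.71 and 234.22 FPKM in zygotes, 16.66 and 19.14 FPKM at early 2-cell and 73.45 and 82.45 FPKM at late 2-cell with DMSO, and at 14.54 and 21.17 FPKM at late 2-cell with A-485. Of 18 cell cycle genes 9 rose and 1 fell, 4 were lower with A-485 at early 2-cell, and 10 were lower and 1 higher at late 2-cell. Ccne1, cyclin E1, had a retained peak and was at 65.9 and 61.07 FPKM with DMSO and 9.72 and 8.18 FPKM with A-485 at early 2-cell, a change of -2.74 ± 0.13 (adjusted p = 2.49e-08).

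**Figure D5:**
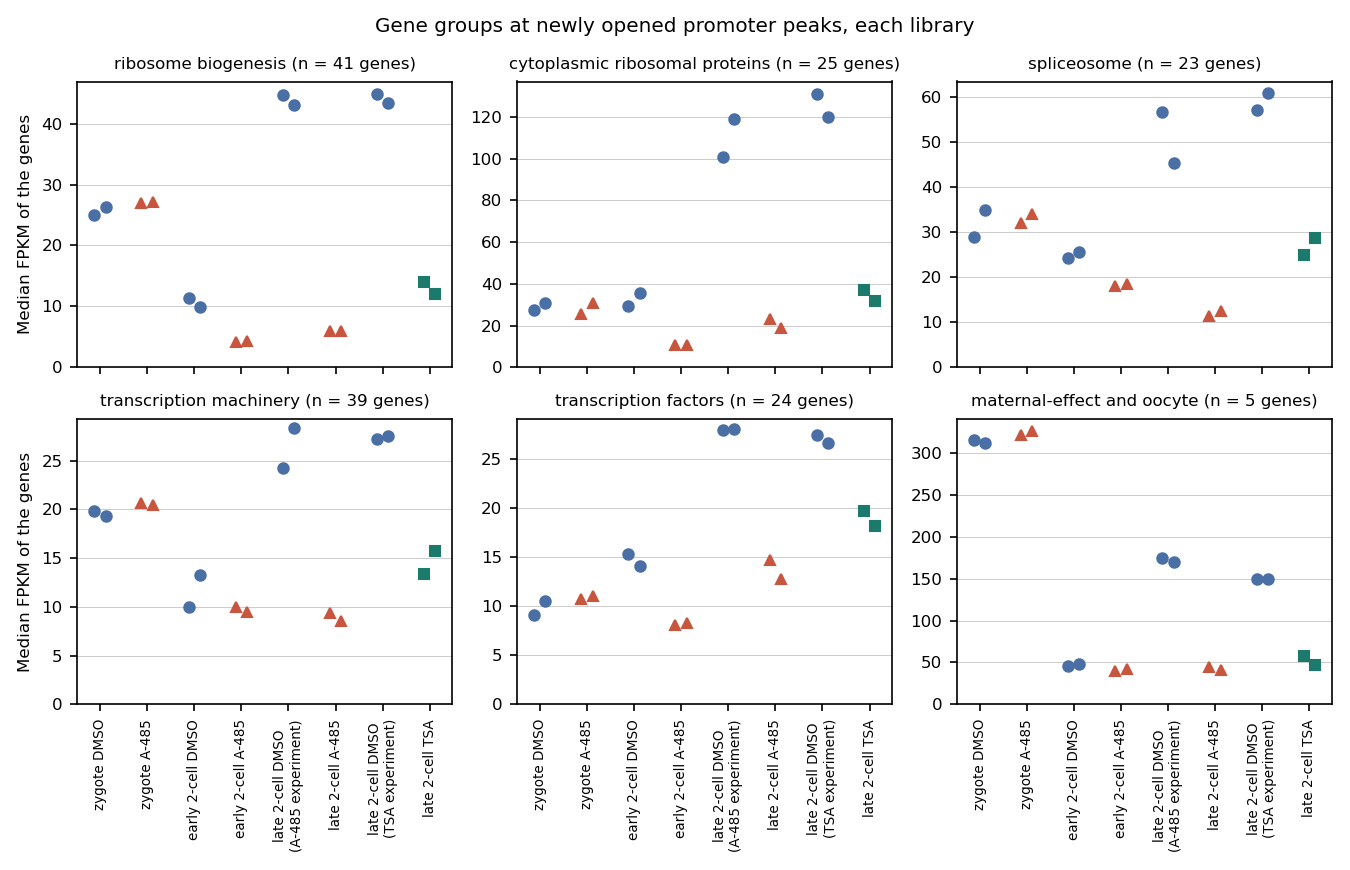
Median level over the member genes of 6 gene groups in each of the 16 libraries (y axis, FPKM, linear scale), by stage and treatment. Points are libraries; the ribosome biogenesis genes lie at 9.97 to 11.4 FPKM at early 2-cell and 43 to 44.8 FPKM at late 2-cell with DMSO, and at 5.89 to 6.02 FPKM at late 2-cell with A-485.

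The proteasome, acetylation, respiratory chain and chaperone groups had 0 to 3 genes lower with A-485 at early 2-cell, where 7.9% of all genes tested were lower. By edgeR 0 of 10 proteasome genes were called there, with 3 at an unadjusted p under 0.05, and 0 of 11 genes for acetyltransferases, deacetylases and bromodomain proteins, with 4. DESeq2 called 0 in both groups, with 2 and 3 at that unadjusted p. At late 2-cell 7 of each were lower. Crebbp, which encodes CBP itself and had an absent peak, was at 298.24 and 315.07 FPKM with DMSO and 305.82 and 319.16 FPKM with A-485 at early 2-cell. Of 12 respiratory chain genes, 11 with a retained peak, 1 was lower at early and 5 at late 2-cell. Of 21 chaperone genes 3 and 9 were lower. At early 2-cell the respiratory chain and chaperone genes thus did not lie below the share of all genes. Hsp90aa1, the inducible HSP90, fell from 1349.39 and 1547.72 FPKM in zygotes to 191.62 and 217.89 FPKM at early 2-cell and was at 171.13 and 179.75 FPKM with A-485.

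Maternal-effect genes are transcribed in the oocyte and act in the embryo, and 5 of 35 were members, each with an absent peak. Zbed3, of the subcortical maternal complex, was the most abundant, at 8854.33 and 9134.48 FPKM with DMSO and 10269.2 and 9986.27 FPKM with A-485 at early 2-cell. Padi6, of the same complex, was at 315.38 and 311.07 FPKM in zygotes and at 37.85 and 42.67 FPKM with DMSO and 40.02 and 41.74 FPKM with A-485 at early 2-cell. Trim28, a corepressor of repeats, was the only one lower with A-485, at 46.27 and 48.36 FPKM against 17.98 and 17.5 FPKM (-1.41, edgeR adjusted p = 1.89e-05). Of 11 members among homeobox and lineage genes 5 rose and 0 fell to early 2-cell, but 4 rose and 4 fell with mitochondrial scaling, and 5 were lower and 0 higher with A-485.

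Several of the largest differences at late 2-cell with A-485 were in genes that rose strongly from early to late 2-cell. Pdxk, pyridoxal kinase, with a retained peak, was at 2.24 and 1.33 FPKM at early 2-cell with DMSO and 0.04 and 0.16 FPKM with A-485. Its late 2-cell levels were 21.61 and 28.01 FPKM with DMSO and 0.06 and 0.45 FPKM with A-485, a change of -8.19 ± 0.3 (log2, edgeR adjusted p = 5.39e-09). Exoc3l2, related to an exocyst subunit, with an absent peak, was at 71.32 and 80.36 FPKM against 0.76 and 0.51 FPKM, a change of -7.2 ± 0.23 (adjusted p = 3.98e-09). Pramel4 was at 35.19 and 41.25 FPKM against 0 and 0.26 FPKM. Sardh, sarcosine dehydrogenase, was at 25.27 and 26.07 FPKM against 0.03 and 0.02 FPKM, which is at most 3 counts per library, so no fold is given. In the other direction Ahnak, a scaffold protein, was at 0.66 and 0.57 FPKM with DMSO and 17.48 and 16.24 FPKM with A-485, a change of 4.37 ± 0.2 (adjusted p = 1.97e-08). Lgals4, a galectin, was at 0.29 and 0.3 FPKM against 11.19 and 11.05 FPKM. Ahnak is widely expressed in fibroblasts, and the fibroblast list was at 19.8 to 26 FPKM in these A-485 libraries. Of the 8 genes on that list, Pdgfra alone had a mean of 14.9 FPKM there, and 3 were at 0 in both libraries. Whether the list genes have a part in the level of Ahnak was not tested.

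TSA also raised members that were near 0 in controls. Insl6, an insulin-like peptide, was at 0.34 and 0.07 FPKM with DMSO and 30.77 and 33.32 FPKM with TSA, and Pfkfb4, a glycolysis regulator, at 0.22 and 0.36 FPKM against 23.65 and 19.45 FPKM (6.26 ± 0.23, edgeR adjusted p = 1.01e-08). Kcnk6, a potassium channel, was at 20.65 and 21.87 FPKM with DMSO and 0.56 and 0.59 FPKM with TSA, a change of -5.57 ± 0.15 (adjusted p = 2.63e-09). Smyd5, a lysine methyltransferase, was at 47.94 and 32.56 FPKM against 2.63 and 2.67 FPKM (-4.61 ± 0.21, adjusted p = 4.3e-08). Both were lower with A-485 at late 2-cell as well, Kcnk6 at 0.1 and 0.16 FPKM against 15.25 and 12.99 FPKM, and Smyd5 at 0.69 and 0.5 FPKM against 33.74 and 25.39 FPKM.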

How the data were processed

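ATAC-seq and total RNA-seq of mouse embryos were analysed. The authors processed ATAC-seq with the ENCODE pipeline and deposited 1 peak list per group over both replicates, with a score, a fold enrichment ratio, and -log10 p and -log10 q values for each peak. The build of these lists is not given in the sources used here for ATAC-seq alone; the submitters' processing notes name GRCm38 and mm10, and all 58713 peaks lay within that build's chromosomes. For RNA-seq, the authors trimmed reads (Trimmomatic 0.39), mapped them with STAR 2.7.8a, quantified with RSEM 1.3.1, and deposited expected counts, which are not normalized, and FPKM.

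Peaks of the same position were joined, and overlaps and distances were computed in Python 3.11.15. Each member was assigned the gene with the nearest transcript start. Expected counts were rounded and tested in edgeR 4.0.16 (R 4.3.3; quasi-likelihood test, TMM, Benjamini-Hochberg over all genes with at least 10 summed counts), using the 4 libraries of each comparison, or the 8 A-485 experiment libraries of early and late 2-cell for the interaction. Scripts were tested on simulated data. The members and gene lists were chosen with earlier results of these data known.

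The named genes were those of the 10 strongest members; in each comparison up to 5 called protein-coding genes per direction with the largest fold change, a mean of at least 10 FPKM and no overlap; the 3 most abundant members of each list; and called transcription factors at early 2-cell. Members of the 2-cell specific list and the genes of the printed sequences were added, with factors outside the rule (Ctcf, Nr5a2, Eif1a, Trim28), chosen after their values were seen. A sequence that the rule selects is not reported here. Depth was 13206163 to 32585987 counts a library, and with 2 libraries a group, the number of libraries limits precision more than depth. Alternatives were DESeq2 1.42.0, other scalings and filters, a replicate block, leaving out each library, other promoter windows and other overlap rules.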

Additional observations from a re-analysis of the deposited data

Results flagged for a closer look

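Among the named genes 12 were flagged because the effect of A-485 differed between late and early 2-cell, by the interaction test of edgeR over 8 libraries (late minus early, log2). They are not all the genes with such a difference. Of the member genes 643 were lower and 197 higher by this test, among them 30 of 41 ribosome biogenesis genes, all lower. For the 12 flagged genes the difference was 7.55 for Tdpoz1, 7.00 for AF067061, 5.37 for Duxbl3, 5.30 for AF067063, 4.63 for Crxos, 4.28 for Calcoco2, 4.07 for Sox2, 3.75 for Lgals4, 2.33 for Ahnak and 2.23 for Glo1. It was -4.45 for Ifi35 and -3.98 for Pdxk, which were lower with A-485 by more at late 2-cell. Tdpoz1, AF067061, AF067063 and Crxos had at most 3 counts per library with A-485 at early 2-cell, and Ifi35 at late 2-cell, so the size of their difference depends on the prior count of the test. Tdpoz1, AF067061, AF067063 and Duxbl3 have near-identical copies, and their values are uncertain. The sign of the effect itself turned for Sox2 and was given above.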

How the results depend on the processing

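Values of the 65 results on named genes kept their direction and call in 663 of 670 alternatives, and 7 lost the call. Counts and shares of members stayed within the limits in 243 of 285 alternatives. With mitochondrial scaling the A-485 comparison gave 72 higher and 1884 lower members at late 2-cell, 9 higher at early 2-cell and 1 higher in zygotes, the stage comparisons gave 247 and 1616 (zygote to early 2-cell), 610 and 1357 (zygote to late 2-cell) and 38 and 1937 (the same with A-485 to early 2-cell), and the interaction gave 83 and 1560. Among A-485 libraries, 134 rose to early 2-cell with total counts and 316 with no FPKM cutoff. Members higher with A-485 at early 2-cell numbered 10 with no FPKM cutoff, 10 with no filter on low counts and 8 with all genes within 1 kb. Without that filter 1 was lower in zygotes. Leaving out each library in turn, the counts ran from 0 to 2 (higher) and 1 to 2 (lower) in zygotes, from 6 to 12 higher at early 2-cell, and from 129 to 184 higher for the interaction, where the lowest was without early 2-cell DMSO replicate 1.

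The share of members retained was 44.62% within 0.5 kb of a start, 38.22% by distance from the strongest summit, 50.31% at protein-coding transcripts only, and 26.14% without members of the late 1-cell A-485 list. The share in that list was 25.52% with equal numbers of peaks, 14.74% in the stronger part of the peaks, and 17.81%, 15.12% and 20.18% by the first 3 rules above. GGATTA was in 8.035% of retained and 63.16% of absent peaks in 200 bp windows, and in 7.36% and 58.79% at the peak's middle.

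Replicate numbers gave no sign of pairing, as deviations of libraries with the same number correlated at -0.03 to 0.05. With the replicate block 10 members were higher and 428 lower with A-485 at early 2-cell, and 1 was lower in zygotes. The cause of these shifts was not tested. Depth and the pooled lists limit what can be said: 1 list per group gives no replicate error for any peak, and genes under the count filter were not tested.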
